A study of Mus musculus with 9 samples.

Results

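Neurod2, Neurod6, Bhlhe22, Tbr1, Mef2c, Zbtb18, Emx1 and Bcl11a encode transcription factors of excitatory neurons in the forebrain. These 8 genes were taken by their symbols from a table of 18275 genes, in which each has 1 row, and all 8 passed the filter on low values. The table came from mRNA of the hippocampus of adult male C57BL/6N mice, with 1 library per animal. The paper names that strain for its virus-injected mice, and it made the mutant allele in embryonic stem cells of a mixed strain background. How far the mutant line was backcrossed is not given there, so a difference in strain background between the groups cannot be told apart from genotype. Levels are given as the authors' normalized signal, from which sequencing depth cannot be read. The Nestin;BrafKE/+ group (n = 4, genotype label K499E) carried a single mutant Braf allele, which encodes a more active kinase of the RAS/ERK pathway, and the Braf+/+ group (n = 5, genotype label WT) consisted of littermates. Nestin-Cre switches the mutant allele on in neural stem cells, so that neurons and glia descending from them carry it, and the allele is then expressed from the Braf promoter itself. The labels name the controls Braf+/+ and WT, and the paper likewise names the control littermates of this cross BRAF+/+. Whether they carried Cre was not given in the sources used here. The names of the libraries fall into 3 series, with 1 mutant and 3 control libraries in series A, 2 and 1 in series B, and 1 and 1 in series C.

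Excitatory neurons of the cortex and hippocampus arise from progenitors of the dorsal telencephalon, and their identity is set by a cascade of transcription factors that begins with homeobox genes in progenitors and passes to basic helix-loop-helix (bHLH), T-box, zinc finger and MADS-box proteins in postmitotic neurons. Several of these factors stay expressed in the adult, where they maintain the program of the mature cell. The bHLH proteins bind E-boxes, short sites of the form CANNTG, as dimers with ubiquitous E proteins, and Id proteins block such dimers. Zbtb18 is a repressor whose preferred site contains the core CATCTG, which is an E-box read from the other strand as CAGATG.

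Neurod2 and Neurod6, the closest relatives among the 8, are shown first as DNA because their levels are set side by side in what follows. Each sequence is the 250 bases before the annotated start of transcription in GRCm39, 5′ to 3′ on the strand of the gene, with every CANNTG in capitals. The Neurod2 window is chr11:98220481-98220730 on the minus strand, and the Neurod6 window is chr6:55658327-55658576 on the minus strand.
Neurod2: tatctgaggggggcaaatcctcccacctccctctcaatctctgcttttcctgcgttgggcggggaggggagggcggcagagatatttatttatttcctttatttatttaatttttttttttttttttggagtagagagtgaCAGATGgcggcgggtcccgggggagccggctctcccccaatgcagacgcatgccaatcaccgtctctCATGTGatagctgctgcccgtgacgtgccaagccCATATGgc
Neurod6: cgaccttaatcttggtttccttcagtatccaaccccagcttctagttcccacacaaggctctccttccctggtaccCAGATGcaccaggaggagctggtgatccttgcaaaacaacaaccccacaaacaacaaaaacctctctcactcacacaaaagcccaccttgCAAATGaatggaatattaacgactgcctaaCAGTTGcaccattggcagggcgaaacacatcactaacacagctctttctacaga
Both windows hold 3 E-boxes, and each holds 1 copy of CAGATG, which begins 109 bases upstream of the start in Neurod2 and 174 bases upstream in Neurod6. CANNTG, which includes CAGATG, was found on either strand in 61.2% of the 16133 windows of the same length read for the genes tested, and CAGATG in 11.7%. Among the other 6 genes, CAGATG was present once in the window of Zbtb18. The windows of Mef2c and Bcl11a held no CANNTG, and those of Bhlhe22, Tbr1, Zbtb18 and Emx1 held 3, 1, 1 and 1. A match of letters is a description of the sequence and says nothing on binding.

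Both genotypes were compared to ask whether the transcription factors of the excitatory lineage change when the mutant kinase is present in that lineage and in glia. Neurod2 fell to 0.69 times its control level (95% interval 0.61 to 0.79, adjusted p = 0.0103 in limma over all genes tested), and it was the 1 gene of the 8 that passed the threshold of 0.05. Over all 16196 genes tested, 2.88% passed, 1.36% in the lower and 1.52% in the higher direction. The log2 fold change was below 0 for 7 of the 8, against 49.9% of all genes tested, and its median was -0.23, against 0.00033 over all genes. An unadjusted p under 0.05 was found for 6 of the 8, all lower in mutants, against 18.5% of all genes. These 8 genes were chosen with earlier results of the same libraries known, so these shares describe the list and do not set it apart. Fewer excitatory neurons and less RNA of a gene per neuron cannot be told apart in tissue RNA.

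**Figure D1:**
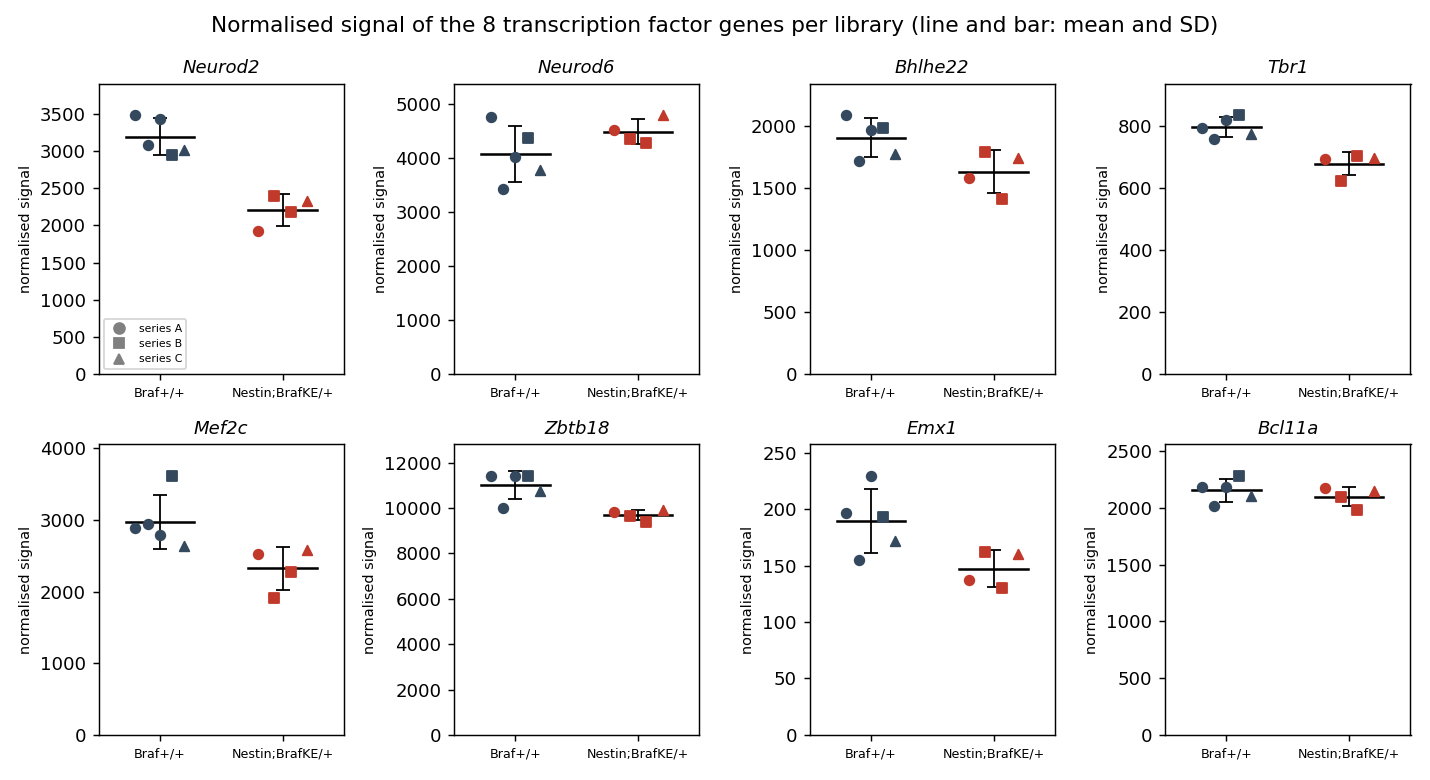
Normalized signal (y axis, from 0) of each of the 8 genes in the 5 Braf+/+ and 4 Nestin;BrafKE/+ libraries (x axis). Points are libraries, with shapes for the series of library names, and lines with bars are the mean and SD. The mutant libraries of Neurod2, Tbr1, Mef2c and Zbtb18 lie below all controls, while those of Neurod6 and Bcl11a overlap the controls.

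Replicates 2 and 4 of the controls stood apart in tissue content. The summed signal of 10 choroid plexus genes was 428618 in Braf+/+ replicate 2 and 159165 in Braf+/+ replicate 4, against a range of 14865 to 36690 in the other 3 controls and of 5055 to 39158 in the mutants. All 10 were lower in mutants and 0 passed the threshold, while 4 had an unadjusted p under 0.05 in limma. The tissue label was met by its markers, with Slc17a7, the vesicular glutamate transporter of forebrain excitatory neurons, at 21463 ± 1286 (SD, n = 5) in controls, and Prox1, a marker of dentate granule cells, at 2002 ± 79.1 (SD, n = 5). Braf itself fell from 2786 ± 153 (SD, n = 5) to 2264 ± 144 (SD, n = 4), or -0.30 on the log2 scale (limma, adjusted p = 0.0378).

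Neurod2 (ENSMUSG00000038255, chromosome 11, 98216241 to 98220480 in GRCm39, minus strand, 2 exons) encodes a bHLH activator that drives glutamatergic differentiation and stays on in mature pyramidal and granule neurons. Its normalized signal was 1922, 2400.1, 2174 and 2324 in Nestin;BrafKE/+ replicates 1 to 4, and 3488, 3078, 3427, 2947 and 3011 in Braf+/+ replicates 1 to 5. The highest mutant library thus lay below the lowest control library, and the groups did not overlap. The mean was 2205 ± 211 (SD, n = 4) in mutants and 3189.8 ± 249 (SD, n = 5) in controls. On the log2 scale the difference was -0.53 (SE 0.08), and Neurod2 ranked 95 by p among all genes tested. Series A, B and C gave log2 differences of -0.79, -0.37 and -0.37. A two-sided exact permutation test of the log2 means gave p = 0.00794 when labels were exchanged freely and p = 0.0417 when they were exchanged inside series, the smallest values possible in this design. Such permutation tests were run for each of the 8 genes and are not adjusted for their number.

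The call for Neurod2 was lost when 1 library was left out. Without Nestin;BrafKE/+ replicate 1, the lowest of the 9, the log2 fold change was -0.37 and the adjusted p 0.0760. That library is the only mutant of series A, so with the series term this fit compared genotypes in series B and C alone. Over all genes it called 42, against 466 in the reported fit. Without any other single library the adjusted p was at most 0.0351. Without both choroid plexus-rich controls the log2 fold change was -0.64 (adjusted p = 0.0489) from series A and C alone, an alternative chosen after seeing the data.

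**Figure D2:**
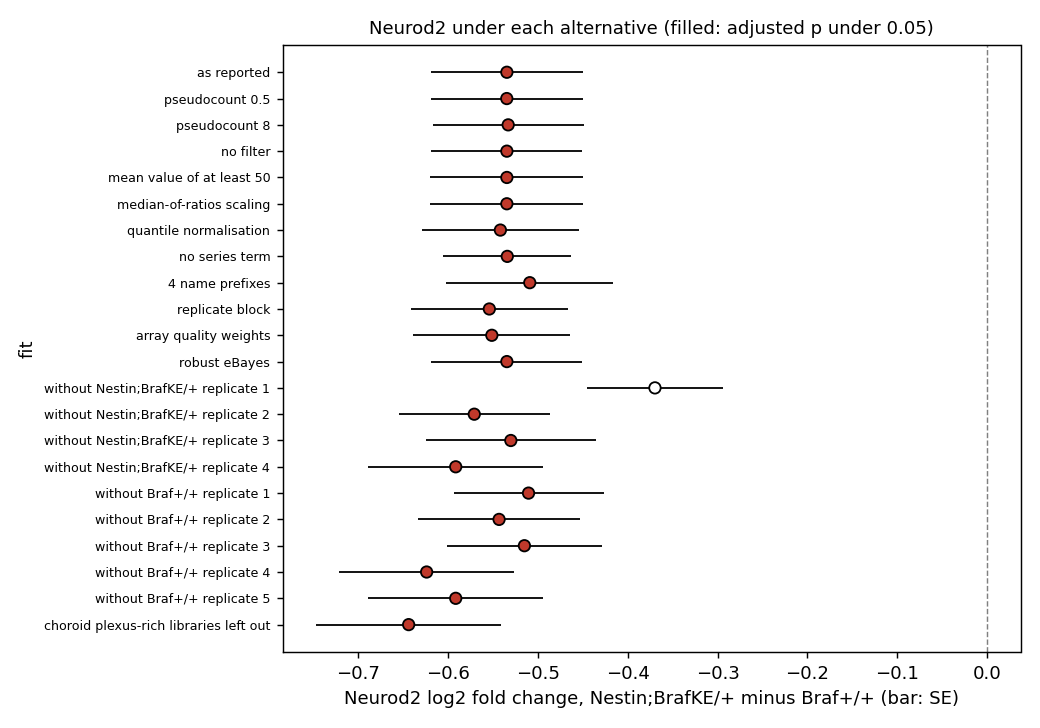
Log2 fold change of Neurod2 (x axis, bars are the SE) under the reported fit and 21 alternatives (y axis), with filled points for an adjusted p under 0.05. All points lie below 0, from -0.64 to -0.37, and the open point is the fit without Nestin;BrafKE/+ replicate 1.

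Neurod6 (ENSMUSG00000037984, chromosome 6, 55654807 to 55658326, minus strand, 2 exons) is the relative of Neurod2 that is expressed in pyramidal neurons. Its signal was 4516, 4351, 4266 and 4793 in the mutant libraries and 4752, 3426, 4004, 4365 and 3775 in the controls. The mutant values lay inside the range of the controls except for replicate 4, which was slightly above it. The mean was 4481 ± 232 (SD, n = 4) in mutants and 4064 ± 515 (SD, n = 5) in controls, and the log2 fold change of 0.15 had a 95% interval from -0.06 to 0.36 and an adjusted p of 0.443. Series A, B and C gave differences of 0.17, -0.019 and 0.34. When 1 library was left out the log2 fold change ran from 0.079, without mutant replicate 4 or without control replicate 5, to 0.24, without control replicate 4, and it passed the threshold in none of these fits (adjusted p from 0.252 to 0.747). Neurod6 lies 16.0 Mb from Braf on the same chromosome, and Emx1 lies 45.5 Mb from it.

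The ratio of Neurod2 to Neurod6 within a library sets the paralogues side by side. The pair was chosen after its values were seen, and the ratio carries the Neurod2 difference within it, so it is a description with no test. The mutant mean was 0.493 ± 0.053 (SD, n = 4), and the control mean was 0.792 ± 0.090 (SD, n = 5). The mutant ratios ran from 0.426 to 0.552 and the control ratios from 0.675 to 0.898, without overlap. On the log2 scale mutants were lower by 0.68, and series A, B and C gave 0.96, 0.35 and 0.72. The ratio does not show that either gene was constant.

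**Figure D3:**
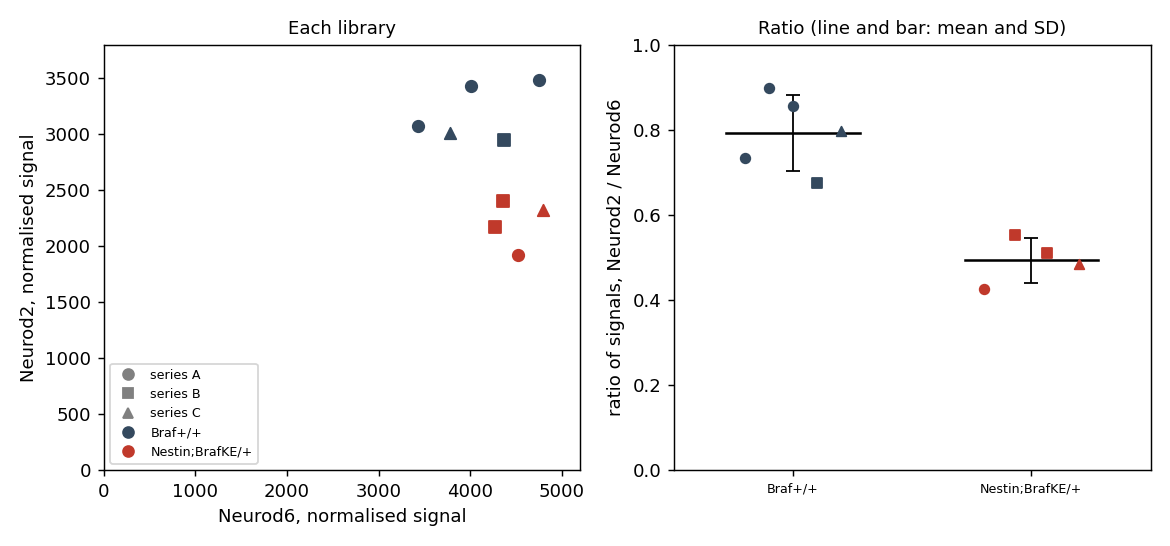
Left, the normalized signal of Neurod2 (y axis) against that of Neurod6 (x axis) in each of the 9 libraries. Right, the ratio of the signals by group, with the mean and SD, where the 4 mutant ratios (0.426 to 0.552) lie below the 5 control ratios (0.675 to 0.898).

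Bhlhe22 (ENSMUSG00000025128, chromosome 3, 18108338 to 18111681, plus strand, 1 exon) encodes a bHLH repressor of the Olig-related family that works with Prdm8 in projection neurons. Its signal was 1579, 1790.2, 1413 and 1738 in the mutant libraries and 2087, 1713, 1963, 1979.5 and 1774.5 in the controls. Replicates 1 and 3 of the mutants lay below all controls, and replicates 2 and 4 lay among the lower controls. Its log2 fold change of -0.23 (SE 0.09) did not pass (adjusted p = 0.214), and the differences within series were -0.28, -0.32 and -0.03 in A, B and C. Exact permutation gave p = 0.0635 freely and 0.125 inside series.

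Tbr1 (ENSMUSG00000035033, chromosome 2, 61633274 to 61644458, plus strand, 6 exons) encodes a T-box factor that specifies deep-layer cortical neurons. Its signal was 694, 623, 705 and 698 in the mutant libraries and 795, 758, 821, 838 and 776 in the controls. The groups did not overlap, and the SD was 38.2 in mutants and 32.4 in controls. The difference of -0.23 on the log2 scale (SE 0.07, 95% interval -0.39 to -0.08) did not pass (limma, adjusted p = 0.114). The series values were 0.19 (A), 0.34 (B) and 0.15 (C) lower in mutants, and exact permutation gave p = 0.00794 freely and 0.0417 inside series.

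Zbtb18 (ENSMUSG00000063659, chromosome 1, 177269917 to 177278330, plus strand, 2 exons) encodes the zinc finger repressor introduced above. Its signal was 9847, 9657, 9402 and 9914 in the mutant libraries and 11437, 10017, 11428, 11414 and 10775 in the controls. The groups did not overlap, although mutant replicate 4 and control replicate 2 were close. Its log2 fold change of -0.18 (SE 0.06, 95% interval -0.30 to -0.06) had an adjusted p of 0.116. Series A, B and C gave 0.15, 0.26 and 0.12 lower in mutants, and exact permutation gave p = 0.0159 freely and 0.0417 inside series.

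Mef2c (ENSMUSG00000005583, chromosome 13, 83652064 to 83815555, plus strand, 10 exons in the canonical transcript) encodes a MADS-box factor that controls synapse number in response to activity and that is also expressed in microglia and vessels. Its signal was 2523, 1914, 2273 and 2585 in the mutant libraries and 2885, 2939, 2786, 3623 and 2642 in the controls. The groups did not overlap, but control replicate 4 stood well above the other controls. A log2 fold change of -0.36 (SE 0.12) did not pass (adjusted p = 0.131), and exact permutation gave p = 0.0159 freely and 0.0417 inside series.

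The size of the Mef2c difference depended on series B, which holds control replicate 4. It was -0.80 there, against -0.19 in A and -0.03 in C. Without that control the log2 fold change was -0.12 (adjusted p = 0.540), and without both choroid plexus-rich controls it was -0.11 (adjusted p = 0.626). Control replicate 4 is the only control of series B, so both fits compared genotypes in series A and C alone. Of 12 microglial genes 10 were higher and 2 lower in mutants, of 8 endothelial genes 6 were higher and 2 lower, and 0 of either list passed the threshold, while 4 and 0 had an unadjusted p under 0.05 in limma. Their part in the values of Mef2c was not tested.

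Emx1 (ENSMUSG00000033726, chromosome 6, 85164420 to 85181444, plus strand, 3 exons) encodes a homeobox factor of the dorsal telencephalon and had the lowest signal of the 8. Its signal was 138, 162, 129.8 and 160.5 in the mutant libraries and 197, 155, 229.98, 193 and 172 in the controls. Mutant replicates 2 and 4 lay above control replicate 2, so the groups overlapped. Its log2 fold change of -0.35 (SE 0.15) did not pass (adjusted p = 0.2395). The differences within series were -0.47, -0.41 and -0.10, and exact permutation gave p = 0.0476 freely and 0.0833 inside series. Control replicate 2, the library richest in choroid plexus transcripts, was the lowest control for Emx1, Tbr1, Zbtb18, Bhlhe22, Neurod6 and Bcl11a. Control replicate 4, the next richest, was the highest of all libraries for Tbr1, Mef2c and Bcl11a and the lowest control for Neurod2. The part of that tissue in these values was not tested.

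Bcl11a (ENSMUSG00000000861, chromosome 11, 24027941 to 24124123, plus strand, 4 exons in the canonical transcript) encodes a zinc finger protein of projection neurons and interneurons. Its signal was 2171, 2091, 1979 and 2148 in the mutant libraries and 2183, 2014, 2178, 2284 and 2099.8 in the controls. Mutant replicate 3 was below all controls and the other 3 mutants lay among them. Its log2 fold change was -0.037, with a 95% interval from -0.17 to 0.09 (adjusted p = 0.779), and its sign turned without Braf+/+ replicate 4 (0.032) and without both choroid plexus-rich controls (0.010). Both of these fits compared genotypes in series A and C alone.

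**Figure D4:**
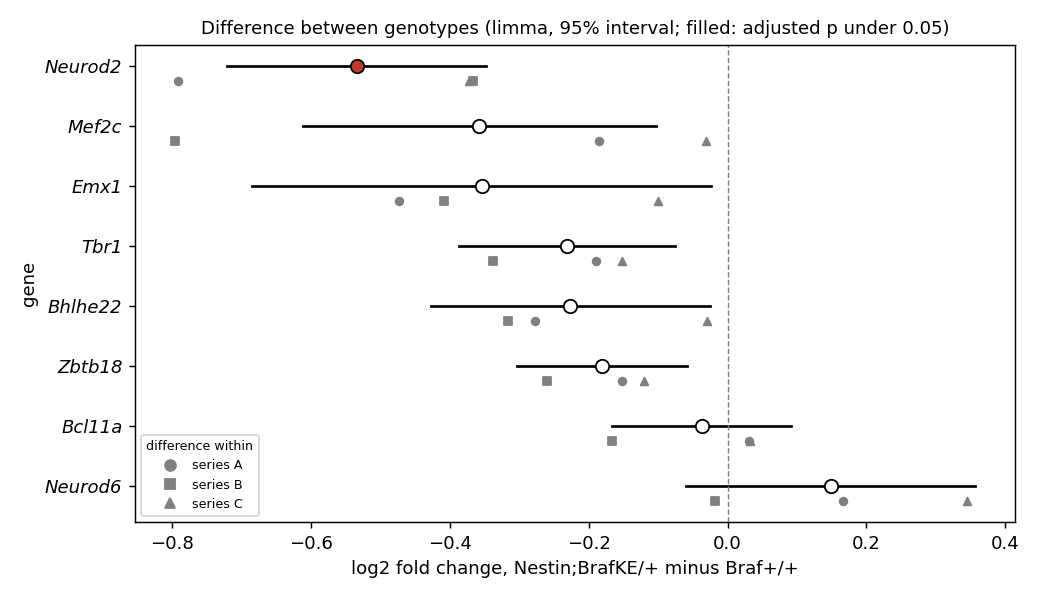
Log2 fold change of each gene (y axis) between Nestin;BrafKE/+ and Braf+/+ (x axis) with its 95% interval from limma, and below it the difference within each series (grey shapes). The filled point is Neurod2 at -0.53, the intervals of Neurod6 and Bcl11a include 0, and the series B value of Mef2c lies at -0.80.

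Groups that did not overlap in the lower direction were found for 4 of the 8 genes, Neurod2, Tbr1, Mef2c and Zbtb18, against 8.13% of all genes tested. In the higher direction it was 7.62% of all genes and 0 of the 8, and in either direction 15.7% of all genes. Lower values in mutants within all 3 series were found for 6 of the 8, against 18.2% of all genes. Leaving out controls moved the count of unadjusted calls. Without Braf+/+ replicate 4, the number of the 8 with an unadjusted p under 0.05 went from 6 to 1, Neurod2, and without both choroid plexus-rich controls it was 2, Neurod2 and Zbtb18. Replicate 4 is the only control of series B, so with the series term both fits compared genotypes in series A and C alone. Over all genes the fit without replicate 4 called 97, against 466 in the reported fit. The log2 fold changes of Tbr1 and Zbtb18 without Braf+/+ replicate 4 were -0.17 (adjusted p = 0.401) and -0.14 (adjusted p = 0.395).

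Divided by the length of the canonical transcript, the levels ordered the genes in nearly the same way in both groups. The order rests on that choice of length. All annotated exons of Mef2c cover 17132 bases, against 7125 in its canonical transcript, and those of Bcl11a cover 13403 against 6221. An order by other lengths was not read. In controls Neurod6 had 1824 ± 231 (SD, n = 5) signal per kb and Zbtb18 1801 ± 102, and their ranges overlapped. Neurod2 followed at 1013 ± 79.2, Bhlhe22 at 569 ± 46.3, Mef2c at 418 ± 53.2, Bcl11a at 346 ± 16.2, Tbr1 at 201 ± 8.16 and Emx1 at 114 ± 17.0, and none of these ranges touched the next. In mutants Neurod6 stood at 2011 ± 104 (SD, n = 4) and Zbtb18 at 1587 ± 37.5 signal per kb, with ranges apart. Bcl11a at 337 ± 13.8 and Mef2c at 326 ± 42.7 changed places in the mutants with overlapping ranges, and the other genes kept their order. Neurod2 came next after Zbtb18, at 700 ± 67.0 signal per kb.

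Relatives and partners of the 8 factors were read in the same fit, by counts. Of 9 other bHLH genes tested 1 passed, Bhlhe40, a repressor of the clock and activity response, which rose by 0.28 on the log2 scale (adjusted p = 0.0472). Of the 9, 6 were higher and 3 lower in mutants, and 4 had an unadjusted p under 0.05 in limma, in both directions. Neurod1, another NeuroD gene of granule neurons, had 423 ± 42.9 (SD, n = 4) in mutants and 415 ± 29.0 (SD, n = 5) in controls, or 0.02 on the log2 scale (adjusted p = 0.928). Of the 7 E protein and Id genes 0 passed, while 1, Id3, had an unadjusted p under 0.05 in limma. The log2 fold change of Id3, an inhibitor of E protein dimers, was 0.28 with an adjusted p of 0.0623, and that of Tcf4, the most abundant E protein gene by signal, was -0.08 (adjusted p = 0.465).

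MEF2 relatives and class IIa histone deacetylases, which bind and silence MEF2 proteins, gave 0 of 6 past the threshold, and 2 with an unadjusted p under 0.05. The log2 fold changes were -0.14 for Mef2d (adjusted p = 0.178) and -0.27 for Hdac7 (adjusted p = 0.229). Of 5 paralogues of the other factors 0 passed, and 0 had an unadjusted p under 0.05. Those with the lowest p were Zbtb20, a zinc finger relative of Zbtb18, at -0.08 on the log2 scale (adjusted p = 0.654), and Zbtb16 at -0.12 (adjusted p = 0.663).

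Of 31 other transcription factors of projection neurons 1 passed the threshold, Nr4a2, an orphan nuclear receptor. It fell from 1250.5 ± 63.8 (SD, n = 5) to 893 ± 20.6 (SD, n = 4), which is -0.48 on the log2 scale (adjusted p = 0.00425), and series A, B and C gave -0.43, -0.55 and -0.48. The median log2 fold change of the 31 was -0.05, with 12 higher and 19 lower. The log2 difference of Prox1 was -0.05 (adjusted p = 0.692).

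Among 19 partners and reported targets of the 8 factors, 3 passed, in both directions, and 7 had an unadjusted p under 0.05 in limma. Of the 19, 11 were higher and 8 lower in mutants, with a median log2 fold change of 0.04. Arc, an activity-regulated gene with MEF2 sites, rose by 0.77 on the log2 scale (adjusted p = 0.00707), Gap43, a growth cone protein, rose by 0.28 (adjusted p = 0.0459), and Fos, an immediate early factor, fell by 0.67 (adjusted p = 0.0457). Prdm8, the partner of Bhlhe22, had 1513 ± 107 (SD, n = 5) in controls and 1196 ± 152 (SD, n = 4) in mutants without overlap, -0.35 on the log2 scale (adjusted p = 0.0827). Sema3c, a guidance cue reported downstream of Bcl11a, had a log2 fold change of -0.43 and an adjusted p of 0.0507. Rnd2, a small GTPase of migrating neurons, had 1256 ± 65.4 (SD, n = 4) in mutants and 1038 ± 100.1 (SD, n = 5) in controls without overlap, 0.28 on the log2 scale (adjusted p = 0.111). The last gene with an unadjusted p under 0.05 was Auts2, at -0.23 (adjusted p = 0.174). Reln and Grin2b, reported targets of Tbr1, had log2 fold changes of 0.13 (adjusted p = 0.701) and -0.09 (adjusted p = 0.647). Cdh11, reported to be repressed by Bhlhe22 and Prdm8, had 0.06 (adjusted p = 0.673).

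Genes of excitatory neuron identity that are not transcription factors gave 0 of 15 past the threshold, with 4 at an unadjusted p under 0.05 in limma. Their median log2 fold change was -0.03, with 7 higher and 8 lower. The lowest p values lay in both directions. Nptx1, a synaptic pentraxin, differed by -0.24 on the log2 scale with overlapping groups (adjusted p = 0.0635). Cnih2, an auxiliary AMPA receptor subunit, differed by 0.24 without overlap (adjusted p = 0.0690), and Nrgn, a calmodulin-binding protein, by 0.20 without overlap (adjusted p = 0.0945). Camk2b differed by -0.16, also without overlap (adjusted p = 0.200). For Slc17a7 the difference was -0.10 (adjusted p = 0.457). The summed signal of the 15 genes ran from 263883 to 297163 in mutants and from 259307 to 287465 in controls, so the groups overlapped. Camk2a was the largest part of this sum, at a mean of 90703 in mutants (SD 10338) and 85972 in controls (SD 6687). With each gene centred on its own mean over the libraries, the mean log2 level ran from -0.030 to 0.014 in mutants. In controls this level ran from -0.033 to 0.052, also with overlap. Of 12 pan-neuronal genes 0 passed, 4 had an unadjusted p under 0.05, and their median was 0.02, with 8 higher and 4 lower. Their summed signal ran from 159799 to 163071 in mutants and from 163489 to 169534 in controls, with all mutants just below all controls. Their mean centred log2 level ran from -0.033 to 0.028 in mutants and from -0.041 to 0.033 in controls, with overlap.

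Markers of other cell types were read in the same libraries. Of 15 astrocyte genes 13 were higher in mutants and 5 rose past the threshold, among them Gfap, an intermediate filament protein, by 0.68 on the log2 scale (adjusted p = 0.00576). In limma 12 of the 15 had an unadjusted p under 0.05. The summed astrocyte signal ran from 175906 to 195896 in mutants and from 160987 to 175959 in controls, so the lowest mutant lay just below the highest control. With each gene centred on its own mean over the libraries, the mean log2 level ran from 0.106 to 0.184 in mutants. In controls it ran from -0.136 to -0.077, without overlap. Of 12 oligodendrocyte genes 12 were higher and 4 rose past the threshold, among them Mobp, a myelin protein, by 0.58 (adjusted p = 0.0253). An unadjusted p under 0.05 was found in limma for 8 of these genes. Their summed signal ran from 130866 to 141036 in mutants and from 95829 to 116414 in controls, without overlap. Of 7 genes of oligodendrocyte precursors 6 were higher and 1 rose, Cspg4, by 0.65 (adjusted p = 0.00261), while 5 had an unadjusted p under 0.05 in limma. The microglial list, counted above, had 0 past the threshold.

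Of 16 genes of inhibitory neurons 14 were higher in mutants and 1 rose, Npy, a neuropeptide, by 1.01 on the log2 scale (adjusted p = 0.00105). An unadjusted p under 0.05 was found in limma for 5 of them. The summed signal of these 16 genes ran from 34416 to 36368 in mutants and from 30694 to 33251 in controls, without overlap. All 5 blood genes were higher, 0 passed and 4 had an unadjusted p under 0.05 in limma, with summed signal from 3489 to 6184 in mutants and from 3179.7 to 3579 in controls. Of 10 dentate gyrus genes 3 fell past the threshold, Stxbp6, Dsp and Lct, and Calb1 rose. Of 9 genes of CA1 8 were higher and 2 rose past the threshold, Wfs1 and Fibcd1. Of 9 genes of CA3 4 were higher and 5 lower, and 1 rose past the threshold, Nptx2. In limma 4 CA3 genes had an unadjusted p under 0.05, Nptx2 and, in the lower direction, Iyd (-1.23, adjusted p = 0.0505), Elavl2 (-0.26) and Cpne4 (-0.22). The mean centred log2 level of the CA3 genes ran from -0.158 to -0.046 in mutants and from -0.007 to 0.178 in controls. Of 14 neocortical layer genes 1 fell, Scnn1a, by 0.82 on the log2 scale (adjusted p = 0.0432). The subiculum and thalamus lists had 0 of 8 and 0 of 8 past the threshold in limma, each with 1 gene at an unadjusted p under 0.05. The part of these tissue and cell markers in the values of the 8 factors was not tested.

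**Figure D5:**
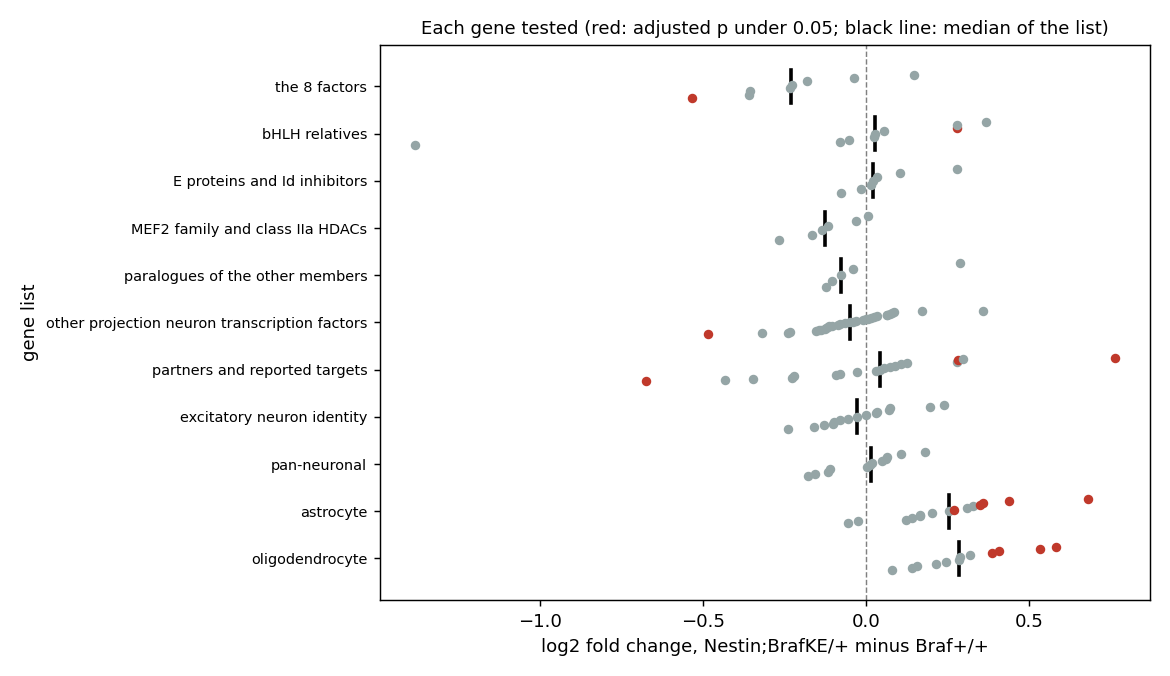
Log2 fold change (x axis) of each gene tested in the 8 factors and 10 other lists (y axis). Red points have an adjusted p under 0.05 and black lines are medians, which lie at -0.23 for the 8 factors, -0.03 for excitatory neuron identity, 0.25 for astrocyte and 0.29 for oligodendrocyte genes.

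The genes most like Neurod2 were found by Pearson's r of log2 values over the 9 libraries after series means were subtracted, among 11874 genes with a mean signal of at least 100. The genotype difference is part of this pattern and the r values carry no p. The 5 highest were Ubtf, a factor of ribosomal RNA transcription, at 0.995, Cplx2, a complexin of synaptic vesicle fusion, at 0.989, Camkk1, a calcium-dependent kinase, at 0.985, Capn3, a calpain protease, at 0.985, and Stk32c, a protein kinase, at 0.984. Of these, Cplx2 (log2 fold change -0.22), Camkk1 (-0.37), Capn3 (-0.66) and Stk32c (-0.32) passed the threshold in the lower direction, and Ubtf (-0.10) did not (adjusted p = 0.247). The r of Neurod2 with Emx1 was 0.822, with Zbtb18 0.802, with Bhlhe22 0.779 and with Tbr1 0.733. It was 0.511 with Mef2c, 0.240 with Bcl11a and -0.321 with Neurod6. For the mean of the 8 genes the 5 most like were Rbfox3, which encodes the neuronal nuclear protein NeuN, at 0.976, Dok6 at 0.9745, Syt7 at 0.972, Zbed6 at 0.972 and Syncrip at 0.971. Rbfox3 differed by -0.16 on the log2 scale (adjusted p = 0.209), and Dok6 passed at -0.36 (adjusted p = 0.0420).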

How the data were processed

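Hippocampal RNA of 4 Nestin;BrafKE/+ and 5 Braf+/+ mice was made into stranded mRNA libraries. The authors trimmed reads with Trim Galore, aligned them with STAR to GRCm39, quantified them with Salmon and normalized with DESeq2, adjusting for unnamed batches in their differential analysis. The deposited signal is a normalized count per gene, and whether it carries the batch adjustment is not given in the sources used here. Values were whole multiples (within 0.05 of a step) of 1 step per library and none was 0, but they were not taken as reads, since mt-Co1 had 1 whole number in all libraries. Depth is unknown, so no count model was used and precision came from the spread between libraries. Normalized library totals differed little and say nothing on depth.

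Limma 3.58.1 was run on genes whose mean reached 10 (R 4.3.3; eBayes with trend), using log2(signal + 1) with genotype and series as terms, and p-values were two-sided and Benjamini-Hochberg adjusted over all genes tested. Fold changes are on that scale. The series of names stand in for the unnamed batches. Steps were checked on simulated data. The members and lists were chosen with earlier results of these data known. By rule, named genes were the 8 members, Braf, the 5 genes most like Neurod2 or the mean of the 8, and, in each list, those a statement turned on among genes past the threshold or, where none passed, the 2 with the lowest p. Named outside it, after their values were seen, were Neurod1, Prox1, Slc17a7, Nrgn, Reln, Grin2b, Cdh11, Prdm8, Sema3c, Rnd2 and Auts2. Camk2a, Camk2b, Iyd, Elavl2 and Cpne4 were named outside it in the same way. Most list genes entered by counts alone, and the values of 1 are not reported here. Symbols came from the table, and coordinates, transcript lengths and promoter windows from Gencode vM39 (99.5% of gene IDs found) and the GRCm39 genome. An antisense transcript overlaps an exon of 6 of the 8 genes (not Tbr1 or Emx1), the strand setting of the counting was not given in the sources used here, and 0 have a same-strand overlap. Alternatives were pseudocounts, filters, scalings, other terms, a replicate block, weights, robust eBayes and leaving out libraries. Figures were drawn with matplotlib 3.10.9.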

Additional observations from a re-analysis of the deposited data

Results flagged for a closer look

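Tbr1 in Nestin;BrafKE/+ replicate 2 had a signal of 622.9, far below the other 3 mutant libraries, with a gap to the nearest that was 0.864 of the range of its group. It was the 1 such library among 16 groups of values, and chance alone gives about 1 in 20 groups.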

How the results depend on the processing

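The number of the 8 genes past the threshold was 1 in the reported fit and moved to 4 without the series term and to 4 with the replicate block, the added genes being Tbr1, Zbtb18 and Mef2c (adjusted p = 0.0144, 0.0191 and 0.0364 without the series term, and 0.0292, 0.0436 and 0.0217 with the block). Leaving out 1 library gave 0 to 1. In a fit with the series term, a series left with a single genotype gives no comparison. This held for series A without mutant replicate 1 and for series B without control replicate 4. It also held for series C without either of its libraries. The count over all genes was 466, and 2260 without the series term, 165 with 4 name prefixes, 1405 with the replicate block, 258 with array quality weights, 58 without the choroid plexus-rich controls, and 42 to 369 when 1 library was left out. The deviations of same-numbered libraries gave mixed values of r, from -0.39 to 0.415, with 2 of 4 mutant libraries most like the control of their own number. These values do not settle whether the numbers pair animals, and the numbers were not taken to do so. The log2 fold change of Bcl11a ran from -0.081 to 0.032 when 1 library was left out, and was 0.010 without the choroid plexus-rich controls. The other 7 genes kept their direction in all 21 alternatives. Neurod2 ran from -0.62 to -0.37 when 1 library was left out, and Mef2c from -0.47 to -0.12. The cause of these changes was not tested. The unknown depth leaves counting error unmeasured.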
